A study of Mus musculus with 3 samples.

Results

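The Kruppel-like factor genes examined here are Klf2, Klf3, Klf4, Klf5, Klf6, Klf7, Klf9, Klf10, Klf13 and Klf15. They were taken as every array probe whose RefSeq accession belongs to a listed symbol, which gave 11 probes for 10 genes, of 39429 probes and 21153 named genes on the array. All 11 probes were well above background in both groups on all 3 arrays, and all 10 genes were tested. Klf3 had 2 probes and each other gene had 1. Hopx-/- embryoid bodies grown with the Wnt inhibitor XAV939 (12.5 µM) were set against Hopx+/- embryoid bodies with no inhibitor named. Hopx encodes a homeodomain protein that does not bind DNA and acts in the heart and in stem cells. Embryoid bodies are clumps in which embryonic stem cells differentiate, and these came from blastocyst-derived mouse lines and were sampled at day 8 of a protocol that favours heart muscle. Both groups carry at least one disrupted Hopx allele, were kept on feeder cells as stem cells, and received VEGF, bFGF, FGF10 and ascorbic acid. Genotype and inhibitor differ together between the groups, so their effects cannot be told apart, and the labels do not say how many cell lines were used. XAV939 acts on tankyrase, an enzyme that marks axin for degradation, so that more axin remains to degrade β-catenin.

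Kruppel-like factors are transcription factors that end in a cluster of C2H2 zinc fingers and bind GC boxes and CACCC boxes, a specificity they share with the related Sp factors. By their partners they are commonly divided into a mostly activating group (Klf1, Klf2, Klf4, Klf5, Klf6 and Klf7), a group that recruits the corepressor CtBP (Klf3, Klf8 and Klf12) and a group that recruits Sin3 (Klf9, Klf10, Klf11, Klf13, Klf14 and Klf16). In mouse embryonic stem cells Klf2, Klf4 and Klf5 act in an overlapping way to maintain self-renewal, with Klf4 downstream of LIF and Stat3.

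Promoter windows of 300 bases, from 250 before to 50 after a RefSeq start site, were at hand for 8 of the 10 genes, in RefSeq's GRCm38.p6 table. Klf5 and Klf10 had no entry. The windows of the genes that differed between the groups are shown so that the family's own binding sequences and the E-boxes can be read in their promoters. Klf4, Klf6 and Klf15 were lower in the null cultures with inhibitor, and Klf2 was higher. Capitals mark CACCC (or GGGTG on the other strand), GGGCGG (or CCGCCC) and CACGTG, an E-box that reads the same on both strands.
Klf4 (chr4:55532426-55532725, minus strand): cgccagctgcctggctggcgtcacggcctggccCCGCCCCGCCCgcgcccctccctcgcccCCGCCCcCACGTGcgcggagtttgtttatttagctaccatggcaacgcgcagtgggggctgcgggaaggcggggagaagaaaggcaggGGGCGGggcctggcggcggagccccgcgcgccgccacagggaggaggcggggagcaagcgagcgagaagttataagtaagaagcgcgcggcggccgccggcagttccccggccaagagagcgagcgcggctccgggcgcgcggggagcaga
Klf6 (chr13:5861239-5861538, plus strand): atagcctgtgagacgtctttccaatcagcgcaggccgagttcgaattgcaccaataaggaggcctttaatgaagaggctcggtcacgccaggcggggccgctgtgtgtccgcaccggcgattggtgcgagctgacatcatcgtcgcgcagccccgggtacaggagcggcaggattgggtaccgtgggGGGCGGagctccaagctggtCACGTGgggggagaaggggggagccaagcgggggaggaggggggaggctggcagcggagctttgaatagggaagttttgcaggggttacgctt
Klf15 (chr6:90462326-90462625, plus strand): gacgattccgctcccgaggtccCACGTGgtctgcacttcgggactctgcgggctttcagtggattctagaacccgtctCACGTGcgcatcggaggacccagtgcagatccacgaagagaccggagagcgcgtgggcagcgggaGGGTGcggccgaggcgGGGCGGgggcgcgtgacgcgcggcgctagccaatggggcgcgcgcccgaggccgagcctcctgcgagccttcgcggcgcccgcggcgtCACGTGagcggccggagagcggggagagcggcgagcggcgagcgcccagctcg
Klf2 (chr8:72318812-72319111, plus strand): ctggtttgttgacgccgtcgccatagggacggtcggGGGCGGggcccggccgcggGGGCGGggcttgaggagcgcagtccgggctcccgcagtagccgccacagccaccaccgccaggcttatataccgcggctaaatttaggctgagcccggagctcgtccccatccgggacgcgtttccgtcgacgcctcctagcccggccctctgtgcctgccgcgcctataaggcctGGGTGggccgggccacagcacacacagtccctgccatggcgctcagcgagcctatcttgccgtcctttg

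Both strands were searched and overlapping matches were each counted. CACCC occurred in 57.5% and GGGCGG in 35.7% of the 32851 windows of that length in the table. The Klf4 window held 4 GGGCGG matches and no CACCC match, at a GC content of 74.3% against a median of 52.7% over all windows. The Klf2 window had 2 GGGCGG matches and 1 CACCC match, and the Klf3 window had the most, with 6 and 5. Klf9 was the only one of the 8 windows without GGGCGG, with 1 CACCC match, and Klf6 held 1 GGGCGG match and no CACCC match. CACGTG was present in 7.15% of all windows. Among the 8 windows it occurred once in Klf4, once in Klf6 and 3 times in Klf15, and it had no match in those of Klf2, Klf3, Klf7, Klf9 or Klf13. The Stat-type site TTCNNNGAA (8.3% of all windows) had 1 match, in Klf9, and the Tcf-type site CTTTGA (16% of all windows) had 1 match, in Klf6. The 8 windows had a GC content from 58.3% to 76.7%, above the median of all windows, so the shares over all windows are no like background. These matches are a description of the letters in each window, and their link to the ratios was not tested.

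**Figure D1:**
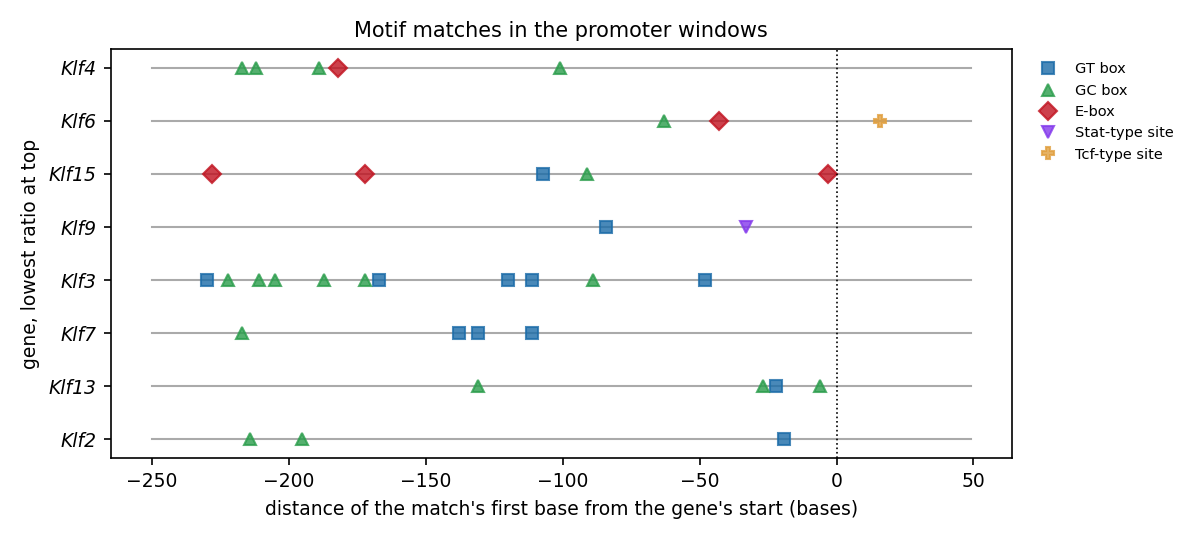
Motif matches in the promoter windows of 8 Kruppel-like factor genes, ordered by mean log2 ratio with the lowest at the top; the x axis is the distance in bases of each match's first base from the start site, and each symbol is a motif (GT box stands for CACCC, GC box for GGGCGG). The E-box symbols lie in the windows of Klf4, Klf6 and Klf15. No link between matches and ratios was tested, and Klf5 and Klf10, which were also lower, had no window.

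Gene expression was measured on 3 two-colour arrays, each of which held both groups, and the labels call these biological replicates. The number of arrays limits the precision, and p-values measure the spread between these 3 arrays. The share of spots well above background ranged from 56.6% to 68.0% over arrays and dyes. The direction of the comparison is likely but not certain. By the labels the null RNA carried Cy5 on every array, but over all probes replicate 3 had a correlation of -0.856 with replicate 1 and of -0.894 with replicate 2 in the ratio of Cy5 to Cy3, whereas replicates 1 and 2 had one of 0.948. Replicate 3 was therefore turned, as in the authors' processed values. With an overall direction opposite to this one every sign below would turn, with 5 of the 10 genes higher and 1 lower. With replicate 3 used as labelled, limma called none of the 10 and 0 genes in all (13 higher and 27 lower at an unadjusted p below 0.05). Hopx itself lay at -2.71 ± 0.05 on the log2 scale (SD, n = 3, as for all ratios here), lower in the cultures labelled null, with replicate 3 turned; whether its probe lies in the deleted part was not checked. Marker lists moved with the groups as well: all 9 endoderm and all 9 heart muscle markers were lower, all 7 markers of the epiblast after implantation were higher, and their probes were well above background in both groups on all 3 arrays. Of the other markers 4 of 6 neural and 4 of 6 erythroid ones were higher. Of 8 fibroblast ones, which feeder cells share, 4 were lower and 1 was higher. Among all tested genes 33.0% were lower and 31.5% higher. With marked local backgrounds kept 2659 of 14713 genes were higher and 2251 lower. There 2 neural and 2 erythroid markers were higher and 8 heart muscle ones lower. In the authors' values 2 erythroid markers were higher. The neural marker Zic1 was called lower by a second probe (-0.738, adjusted p = 0.000198 by limma over all named probes).

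Of the 10 Kruppel-like factor genes, 5 were lower (Klf4, Klf5, Klf10, Klf6 and Klf15), 1 was higher (Klf2) and 4 did not pass the test (Klf3, Klf7, Klf9 and Klf13) in Hopx-null cultures with XAV939 relative to heterozygous ones. These calls are from limma's moderated test of the log2 ratio within arrays, at an adjusted p below 0.05 over 14713 genes. Across all these genes 33.0% were lower and 31.5% were higher, so the share of called members (6 of 10) is near the 64.5% called in either direction and is no result about the family. By channel levels 5 genes were lower and 2 higher with no overlap between the groups, where 34.6% of all tested genes were lower and 33.5% higher in that way. The median log2 ratio of the 10 genes was -0.21, against -0.011 over all tested genes. 3 of the 10 genes changed by more than 1 on the log2 scale, all of them lower: Klf4, Klf5 and Klf10, where 9.55% of all genes passed and fell by at least that much and 7.77% passed and rose by it. With median centring in place of loess 3 of the 5 were still called lower, and Klf6 (-0.19, adjusted p = 0.596 by limma, over alternatives from 0.00149 to 0.995) and Klf15 were not. Over all 14713 genes 2019 were lower with median centring, against 4853 with loess. In embryoid bodies fewer cells of a type and less RNA per cell cannot be told apart, here and for every gene below.

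**Figure D2:**
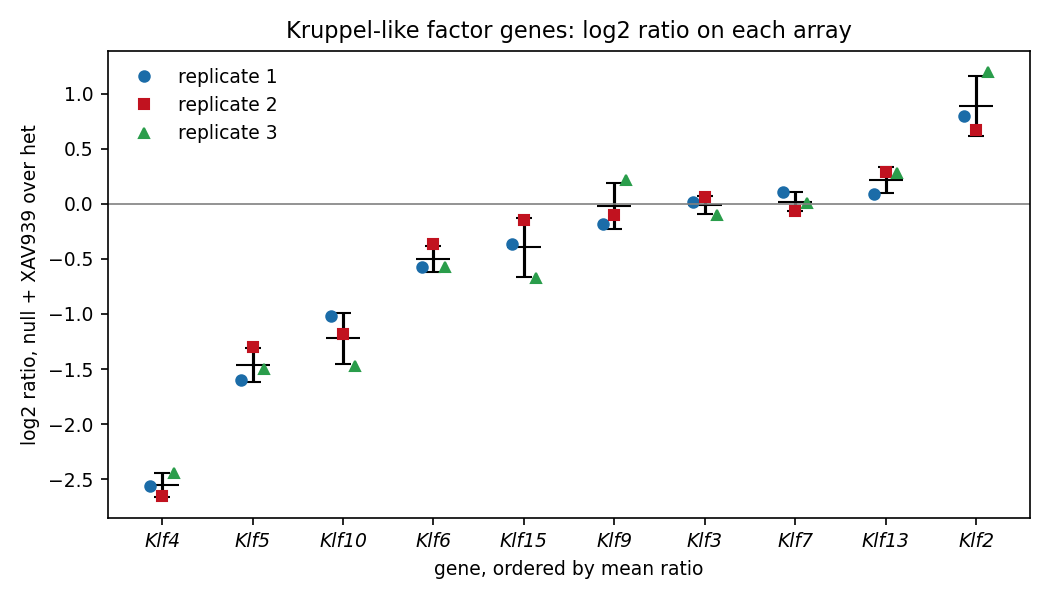
Log2 ratio of null plus XAV939 over heterozygous cultures for each gene's tested probe on each of the 3 arrays (symbols), with the mean and SD (bars), ordered by mean ratio. Klf4 lies between -2.65 and -2.44 on all 3 arrays, Klf2 between 0.67 and 1.20, and Klf3, Klf7 and Klf9 lie on both sides of 0.

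Klf4, a reprogramming factor that also acts in epithelia and endothelium, had the largest difference of the 10. Its log2 intensity was 8.35, 8.28 and 8.22 in null cultures with XAV939 on replicates 1 to 3, against 10.92, 10.93 and 10.66 in heterozygous cultures. The groups did not overlap, as for 68.1% of all tested genes, and their gap was far wider than the spread within either group. The ratio was 5.87-fold lower (-2.55 ± 0.10, adjusted p = 2.81e-07 by limma), and 0.85% of tested genes had a lower ratio. In the authors' deposited table the Klf4 log2 ratios were -1.903, -2.362 and -2.546 on the 3 arrays, and the 6 called genes had the same sign there on every array as in the fit.

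Klf5, which acts in stem cell self-renewal and in epithelial and trophectoderm development, was also lower. On replicates 1 to 3 it had log2 intensities of 8.76, 8.98 and 8.96 in null cultures with XAV939, against 10.36, 10.28 and 10.47 in heterozygous ones. Each null value lay below each heterozygous value. The ratio was 2.76-fold lower (-1.47 ± 0.15, adjusted p = 5.29e-06 by limma).

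Klf2, the third factor of the stem cell trio and a regulator of endothelial quiescence, differed in the other direction, with log2 intensities of 11.14, 11.01 and 11.45 in null cultures with XAV939, against 10.34, 10.34 and 10.25 in heterozygous ones. All 3 null values were the higher ones, with replicate 3 the furthest apart. The ratio was 1.85-fold higher (0.89 ± 0.28, adjusted p = 0.000249 by limma). Within each array the Klf2 ratio exceeded that of Klf4 by 3.36, 3.32 and 3.64 on the log2 scale and that of Klf5 by 2.39, 1.97 and 2.70. The trio therefore did not move together on any of the 3 arrays.

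Klf6, a ubiquitous early response factor, had a small difference. Null cultures with XAV939 had log2 intensities of 12.92, 13.32 and 13.11, against 13.49, 13.68 and 13.69 in heterozygous ones. The groups were separate but close, with the highest null value (replicate 2) below the lowest heterozygous one (replicate 1). The ratio was 1.42-fold lower (-0.50 ± 0.12, adjusted p = 0.00235 by limma). Klf7, which acts in neuronal and sensory development, did not pass the test (0.02 ± 0.09, adjusted p = 0.881 by limma). Its log2 intensity was 10.76, 10.93 and 10.82 in null cultures with XAV939, against 10.66, 10.99 and 10.80 in heterozygous ones, and the groups overlapped.

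**Figure D3:**
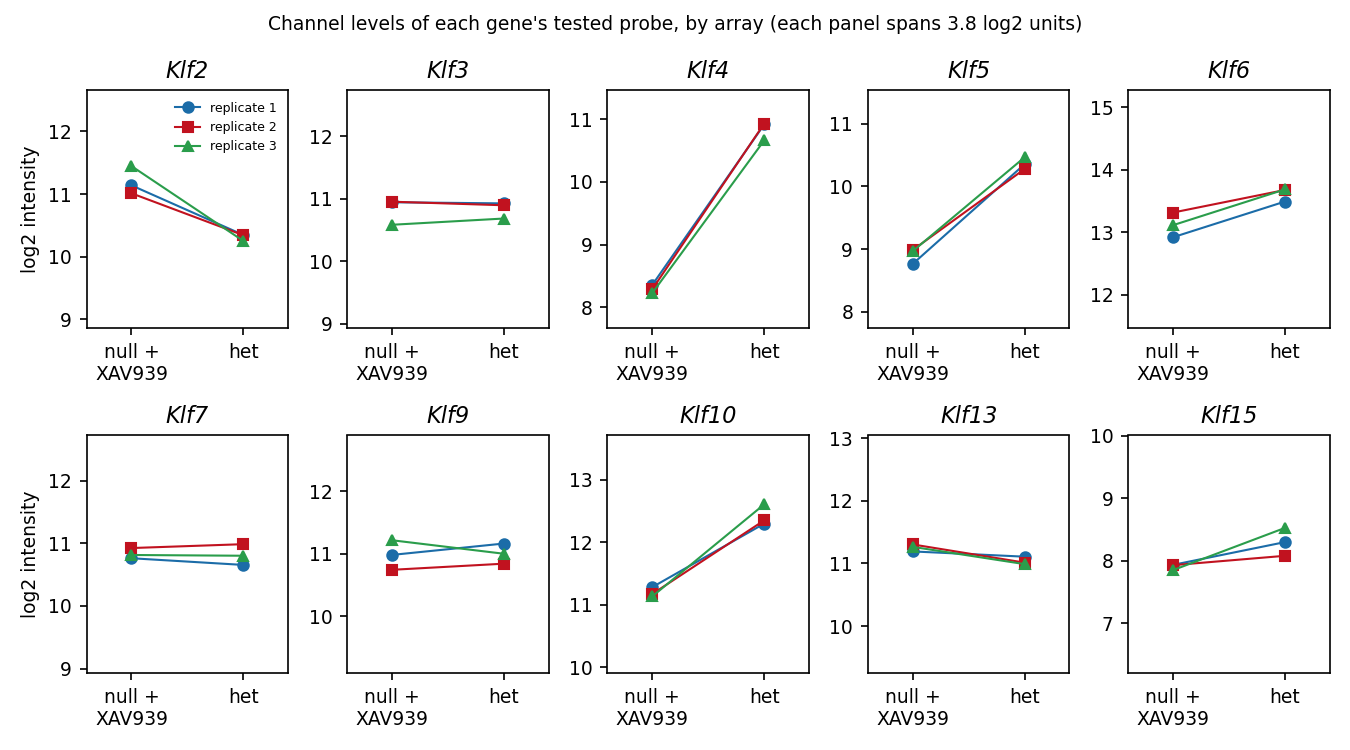
Log2 intensity of each gene's tested probe in null plus XAV939 cultures (left in each panel) and heterozygous cultures (right), with a line joining the 2 channels of an array; every panel spans the same range. The lines of Klf4, Klf5 and Klf10 climb steeply towards the heterozygous side, those of Klf2 run the other way, and those of Klf3, Klf7 and Klf9 are nearly flat.

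Klf3, a CtBP-recruiting repressor of erythroid and fat cell genes, was measured by 2 probes. The brighter one had log2 intensities of 10.94, 10.95 and 10.58 in null cultures with XAV939, against 10.93, 10.89 and 10.68 in heterozygous ones. It did not pass the test (-0.01 ± 0.08, adjusted p = 0.95 by limma). The other probe had ratios of -0.08, -0.35 and -0.10, lower on each array, and in a fit over all named probes it did not pass either (adjusted p = 0.166 by limma).

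Klf10, also known as TGFβ-inducible early gene, was the one lower gene among the Sin3-recruiting members. Its log2 intensity was 11.28, 11.17 and 11.13 in null cultures with XAV939, against 12.29, 12.35 and 12.60 in heterozygous ones, with no overlap. The ratio was 2.33-fold lower (-1.22 ± 0.23, adjusted p = 2.57e-05 by limma). Klf9, a glucocorticoid and thyroid hormone responsive gene, had log2 intensities of 10.98, 10.74 and 11.21 in null cultures with XAV939, against 11.16, 10.84 and 11.00 in heterozygous ones. Replicate 3 was higher and replicates 1 and 2 were lower, and Klf9 did not pass the test (-0.02 ± 0.21, adjusted p = 0.881 by limma). Klf13, which is expressed in the developing heart and in T cells, had log2 intensities of 11.19, 11.30 and 11.27 in null cultures with XAV939, against 11.11, 11.01 and 10.99 in heterozygous ones. Its null values were the higher ones on all 3 arrays, but the ratio did not pass (0.22 ± 0.12, adjusted p = 0.0903 by limma).

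Klf15, a regulator of cardiac and hepatic metabolism and of heart rhythm, was the lower gene with the least stable call. Its log2 intensity was 7.93, 7.93 and 7.85 in null cultures with XAV939, against 8.30, 8.08 and 8.53 in heterozygous ones. The groups did not overlap, and the heterozygous values were spread more widely than the null ones. The ratio was 1.32-fold lower (-0.40 ± 0.26, adjusted p = 0.0182 by limma, with alternatives from 0.0142 to 0.995). It did not pass without replicate 1 (-0.41, adjusted p = 0.0533), in the authors' values (-0.41, adjusted p = 0.0584), after median centring (-0.37, adjusted p = 0.292) or where marked local backgrounds were kept (-0.28, adjusted p = 0.223). All 9 heart muscle markers were lower too, with a summed linear intensity of 20750 to 25620 in null cultures with XAV939 and 93470 to 110400 in heterozygous ones. Their part in the Klf15 difference was not tested.

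Ordered by mean log2 ratio the genes ran Klf4, Klf5, Klf10, Klf6, Klf15, Klf9, Klf3, Klf7, Klf13 and Klf2. Klf5 exceeded Klf4 by 1.09 ± 0.23 on the log2 scale and Klf6 exceeded Klf10 by 0.72 ± 0.24, on 3 of 3 arrays each. Klf2 exceeded Klf13 by 0.67 ± 0.27, also on 3 of 3 arrays. The steps from Klf5 to Klf10 (0.24 ± 0.30) and from Klf15 to Klf9 (0.38 ± 0.45) had one sign on 3 of 3 arrays but were smaller than their own SD. Those from Klf6 to Klf15 (0.11 ± 0.18), Klf9 to Klf3 (0.01 ± 0.29) and Klf3 to Klf7 (0.03 ± 0.13) were smaller than their SD and changed sign between arrays. The step between Klf7 and Klf13 (0.20 ± 0.20) was about as large as its SD and changed sign on replicate 1. The SD over arrays ranged from 0.08 to 0.28 among the 10 genes, with a median of 0.14, against 0.17 over all tested genes.

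**Figure D4:**
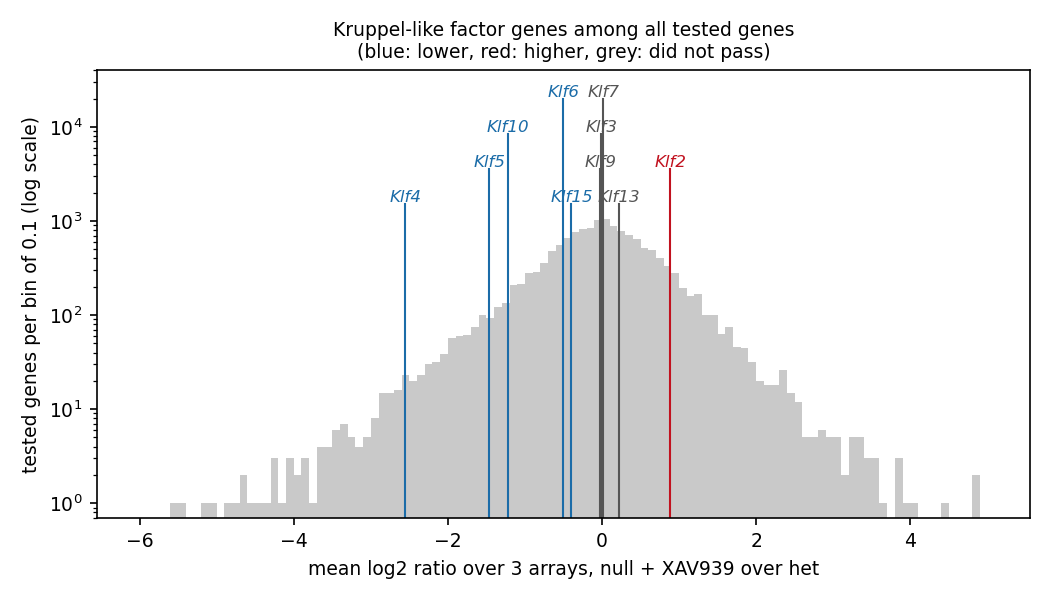
Number of tested genes by mean log2 ratio (grey bars, bins of 0.1, log scale on the y axis), with the 10 Kruppel-like factor genes marked by lines at their mean ratio. Klf4 lies in the lower tail, where 0.85% of genes have a lower ratio, Klf2 has 90.1% of genes below it, and Klf3, Klf7 and Klf9 lie at the centre.

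Among the genes whose 3 ratios lay nearest to those of Klf4, by Euclidean distance over the 3 arrays, were Dubr (-2.53 ± 0.16, distance 0.089) and Fgfr4 (-2.62 ± 0.05, distance 0.139). For Klf2 they were Rell2 (0.91 ± 0.24, distance 0.066), Mrpl13 (0.86 ± 0.28, distance 0.073) and Arl5c (0.88 ± 0.28, distance 0.085). With 3 arrays this likeness is a description only.

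Of the 7 Klf genes outside the 10, 6 were tested, and Klf17 was not because its probes were not well above background on every array. Klf8, a CtBP-recruiting repressor, was lower at -1.15 ± 0.03 (adjusted p = 1.34e-05 by limma), with ratios of -1.16, -1.11 and -1.16. Klf14, a Sin3-recruiting factor encoded by a gene without introns, was lower at -1.10 ± 0.26 (adjusted p = 5.72e-05 by limma). Klf12, another CtBP-recruiting repressor, was higher at 0.66 ± 0.15 (adjusted p = 0.000596 by limma). Klf1 (-0.03 ± 0.20), the erythroid factor, did not pass, nor did Klf11 (-0.01 ± 0.07) and Klf16 (0.08 ± 0.17). With marked local backgrounds kept Klf12 (0.32, adjusted p = 0.0797) and Klf14 (-0.68, adjusted p = 0.0737) did not pass.

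Counts by group are to be read against the 33.0% lower and 31.5% higher among all tested genes. By partner group, 3 of 6 activating genes were lower and 1 was higher, 1 of 3 CtBP-recruiting genes was lower and 1 higher, and 2 of 6 Sin3-recruiting genes were lower while the other 4 did not pass. Over the whole family 7 of 16 tested genes were lower and 2 were higher, with a median of -0.03, and each partner group held genes that did not pass. Of 7 tested Sp genes, whose products bind the same boxes, 1 was lower and 1 higher. Sp5, a Wnt target in mouse embryos, fell (-0.50 ± 0.02), and Sp8, which acts in limb and forebrain, rose (1.48 ± 0.12). A second Sp8 probe was not called (0.125, adjusted p = 0.326 by limma over all named probes), and the mean over probes was 0.8. Sp1 (0.25 ± 0.35), the ubiquitous factor, and Sp3 (0.08 ± 0.23) did not pass. Without replicate 3 the count of higher Sp genes was 3, with Sp1 at 0.445, and 5281 of all 14713 genes were higher. Neither Sp5 (-0.31, adjusted p = 0.087) nor Sp8 (0.78, adjusted p = 0.0507) passed limma's test with marked local backgrounds kept, and Sp5 did not with median centring either (-0.445, adjusted p = 0.144).

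**Figure D5:**
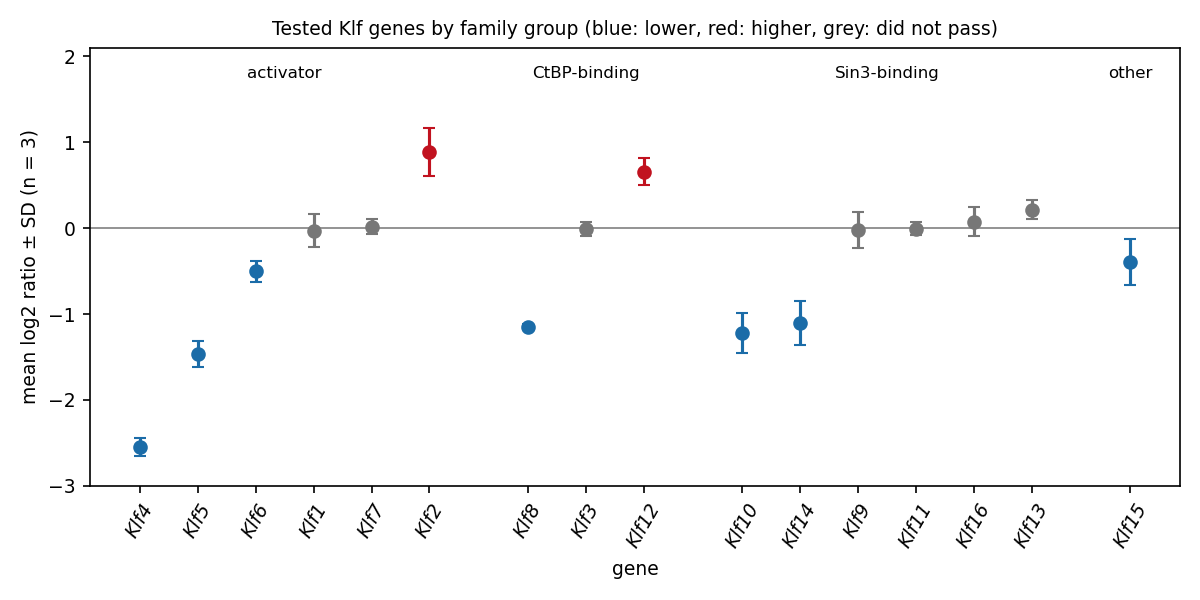
Mean log2 ratio of null plus XAV939 over heterozygous cultures with its SD (n = 3) for the 16 tested Klf genes, by partner group; colour shows the call of limma's test. Lower genes appear in every group, and Klf2 and Klf12 are the higher ones.

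Genes of the LIF and Stat3 pathway, which feeds into Klf4 in mouse stem cells, were mostly lower beside it. This list and those that follow were all written from general knowledge, with earlier results of these data known. Their counts are to be read against the 33.0% lower and 31.5% higher among all tested genes, and their medians against -0.011. These shares hold for loess and all 3 arrays, and the alternatives changed them. Of 14713 genes 3031 were higher and 2019 lower with median centring, and 2659 and 2251 with marked local backgrounds kept. The counts were 3890 and 4143 without replicate 1, 3510 and 3716 without replicate 2, and 5281 and 5343 without replicate 3. In the LIF and Stat3 list 6 of 7 tested genes were lower and Jak1 did not pass, with a median of -0.77. The receptor gene Lifr lay at -1.65 ± 0.30, Stat3 at -1.52 ± 0.21, the feedback inhibitor gene Socs3 at -1.02 ± 0.01 and the shared receptor subunit gene Il6st at -0.77 ± 0.16. Other probes of Lifr (-1.137 and -0.832) and Stat3 (-0.588) were called lower too, with smaller differences than the brightest ones. Jak2 (-0.44 ± 0.16) and Pim1 (-0.46 ± 0.31) fell as well, Jak1 lay at -0.28 ± 0.23, and Lif was not tested. With median centring 3 of the 7 were called lower, and 4 were with marked local backgrounds kept or without replicate 2. Jak2 (-0.417, adjusted p = 0.0554 by limma) and Pim1 (-0.368, adjusted p = 0.106) were among those not called without replicate 2, and Pim1 was not called without replicate 1 either (-0.367, adjusted p = 0.0841).

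Among 15 genes of the stem cell network 5 were lower and 9 higher. Of the higher ones Dppa3 and Gbx2 were not well above background in heterozygous cultures on 1 array and so passed the filter there through null cultures alone; with both channels required, 7 of 13 genes were higher and 5 lower. The lower ones were Tbx3 (-3.16 ± 0.24), Tfcp2l1 (-2.89 ± 0.11), Nr5a2 (-1.79 ± 0.35), Tet2 (-1.41 ± 0.43) and Zfp42 (-1.19 ± 0.22). Nanog counted as higher by its brightest probe (0.995), and another of its probes was called higher too (0.693). A further Nanog probe was called lower (-0.464, adjusted p = 0.00426 by limma over all named probes). Among the higher ones Pou5f1 (2.50 ± 0.27) and Fgf4 (2.31 ± 0.44) had the largest ratios. The counts were 6 higher and 5 lower with marked local backgrounds kept. The 7 markers of the epiblast after implantation had a summed linear intensity of 99150 to 132000 in null cultures with XAV939 and 11930 to 16760 in heterozygous ones, and their part in the differences of Klf2, Klf4 and Klf5 was not tested.

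Epithelial genes bound by Klf4 and Klf5 were split, with 5 of 8 lower and 2 higher. The keratin genes Krt18 (-2.30 ± 0.22), Krt19 (-2.21 ± 0.37) and Krt8 (-1.77 ± 0.64), the homeobox gene Cdx2 (-1.66 ± 0.19) and Cldn7 (-0.75 ± 0.52) were lower. The adhesion genes Cdh1 (1.21 ± 0.25) and Epcam (0.82 ± 0.26) were higher, and Cldn4 did not pass, with ratios of -0.65, -0.26 and 0.91 on replicates 1 to 3 for its brightest probe. A second Cldn4 probe had ratios of 0.174, 0.612 and 0.556 and was called higher (adjusted p = 0.00771 by limma over all named probes). The list's counts were 4 lower and 2 higher with median centring or with marked local backgrounds kept. Without replicate 3 they were 6 lower and 2 higher. The 9 endoderm markers, which go with epithelium in embryoid bodies, had a summed linear intensity of 5294 to 10980 in null cultures with XAV939 and 145800 to 160700 in heterozygous ones. Their part in the Klf4 and Klf5 differences was not tested.

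Genes that Klf2 and Klf4 regulate in endothelium moved in both directions, with 3 of 6 tested higher and 3 lower. Nos3, the endothelial nitric oxide synthase gene, rose (0.92 ± 0.25), as did Thbd (0.39 ± 0.06) and S1pr1 (0.32 ± 0.21). Plat (-1.12 ± 0.21), Vcam1 (-0.70 ± 0.17) and Edn1 (-0.31 ± 0.03) fell. With median centring or with marked local backgrounds kept 1 gene was called in each direction, and without replicate 1 the counts were 1 higher and 2 lower. Thbd and Edn1 were not called without replicate 1 or without replicate 2, and S1pr1 was not without replicate 1 or without replicate 3. Of 8 endothelium markers 5 were higher and 1 lower, with 3 called, all higher, where marked local backgrounds were kept. The lower one was Tek (-0.34 ± 0.28), a receptor gene, which was not called without replicate 2 (-0.299, adjusted p = 0.189) or without replicate 3 (-0.218, adjusted p = 0.0971), nor under 7 of the other alternatives. Kdr counted as higher by its brightest probe (0.528), and its second probe was not called (-0.162, adjusted p = 0.253 by limma over all named probes). With the mean over probes 4 endothelium markers were higher and 1 lower. The markers' summed linear intensity was 10490 to 12660 in null cultures with XAV939 and 6934 to 7607 in heterozygous ones. Their part in the Klf2 difference was not tested. Of the 7 genes of the Erk5 and Mef2 route, which induces Klf2 and Klf4 in endothelium, 1 passed by its brightest probe, Map3k2, which was lower (-0.79 ± 0.11). A second Map3k2 probe was not called (-0.093, adjusted p = 0.434 by limma over all named probes), and the mean over probes was -0.443. Of Mef2a, which did not pass by its brightest probe (-0.058), the other probes were called lower (-0.396 and -0.655), and so was the second probe of Mef2d (-0.487, against 0.01 for the brightest). With the mean over probes 2 of the 7 genes were lower. Keeping marked local backgrounds took Map3k2 out of the calls (-0.47, adjusted p = 0.0984 by limma). Mapk7, the gene of Erk5, lay at 0.13 ± 0.42, and without replicate 3, where it was called higher (0.365), the counts were 1 higher and 2 lower.

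Genes of the TGFβ pathway, which induces Klf10, were lower in 5 of 10 cases and higher in 1. The ligand genes Tgfb2 (-2.13 ± 0.10) and Tgfb1 (-0.95 ± 0.14), the inhibitory Smad gene Smad7 (-1.11 ± 0.26), the receptor gene Tgfbr2 (-0.68 ± 0.13) and Smad3 (-0.58 ± 0.15) fell. Tgfb3, another ligand gene, rose (0.36 ± 0.05). A second Smad3 probe was not called (-0.19, adjusted p = 0.134 by limma over all named probes). The receptor gene Tgfbr1 did not pass by its brightest probe (0.25 ± 0.26). Its second probe was called lower (-0.521, adjusted p = 0.00339 by limma over all named probes). Tgfb3 was not called with median centring (0.42, adjusted p = 0.178), in the authors' values (0.218, adjusted p = 0.257), with marked local backgrounds kept (0.23, adjusted p = 0.1), without replicate 1 (0.346, adjusted p = 0.0763) or without replicate 2 (0.349, adjusted p = 0.094), all by limma. With median centring 3 genes were called lower, and without replicate 3 the counts were 6 lower and 3 higher.

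Of 9 genes tied to glucocorticoids or to Klf15, 3 were lower and 2 higher. Nr3c1, the glucocorticoid receptor gene, fell (-1.51 ± 0.12), as did Zbtb16 (-2.58 ± 0.33) and Slc2a4 (-0.58 ± 0.07), the gene of an insulin-responsive glucose transporter that Klf15 activates in muscle and fat. The receptor's target gene Fkbp5 (1.80 ± 0.07) rose, and so did Bcat2 (0.60 ± 0.16), an enzyme gene of amino acid breakdown that Klf15 activates. Kcnip2 (0.02 ± 0.20), a potassium channel subunit gene downstream of Klf15 in heart, did not pass. Nor did the glucocorticoid target Tsc22d3 (-0.12 ± 0.37), which was called lower without replicate 3 (-0.331). The list's counts were 2 lower and 2 higher with median centring or with marked local backgrounds kept. Without replicate 3 they were 4 lower and 2 higher.

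Cofactor genes were higher in 4 of 10 cases and lower in 1. The CtBP genes Ctbp2 (1.58 ± 0.47) and Ctbp1 (0.51 ± 0.11) and the histone deacetylase genes Hdac1 (1.08 ± 0.39) and Hdac2 (0.39 ± 0.11) rose. Other Hdac1 probes were called higher too, with larger ratios than the brightest one (1.382 and 2.974). Hdac2 was not called in the authors' values (0.167, adjusted p = 0.405 by limma), with marked local backgrounds kept (0.215, adjusted p = 0.242), with median centring (0.378, adjusted p = 0.175) or without replicate 2 (0.401, adjusted p = 0.0608). Sin3a (0.10 ± 0.21) and Sin3b (-0.12 ± 0.29) did not pass, nor did the acetyltransferase genes Ep300 (0.08 ± 0.14) and Kat2b (0.28 ± 0.38), which was called higher without replicate 3 (0.502). Crebbp fell by its brightest probe (-0.53 ± 0.23), but its 2 tested probes were called in opposite directions. With median centring or with marked local backgrounds kept the list had 3 called genes, all higher. Of the 4 ubiquitin ligase genes that act on Kruppel-like factors, Fbxw7 rose (0.57 ± 0.09), and Fbxo32 (-0.76 ± 0.20), Smurf1 (-0.74 ± 0.08) and Wwp1 (-0.32 ± 0.07) fell. A second Fbxw7 probe was not called (0.231, adjusted p = 0.0652 by limma over all named probes), and Wwp1 was not called without replicate 1 (-0.363, adjusted p = 0.0632) or without replicate 2 (-0.294, adjusted p = 0.155). With marked local backgrounds kept 1 of these 4 passed, and with median centring 2 did.

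Of 7 cell cycle genes linked to Klf4, 3 were lower and 4 higher. The counts were 2 lower and 4 higher with median centring and 3 lower and 3 higher with marked local backgrounds kept. Cdkn1a, the p21 gene that Klf4 activates, was lower (-1.63 ± 0.09), as were Cdkn1c (-1.40 ± 0.19) and Cdkn1b (-0.64 ± 0.15). Ccnd1 (1.88 ± 0.10), a cyclin gene that Klf4 can repress, Cdkn2b (1.45 ± 0.19), Ccnb1 (0.82 ± 0.11) and Trp53 (0.79 ± 0.23) were higher. Second probes of Cdkn1a (-0.47) and Cdkn2b (0.495) were called in the same direction as the brightest ones, with smaller differences. The part of Klf4 in the differences of these genes was not tested.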

How the data were processed

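Each of 3 two-colour arrays set null plus XAV939 RNA against heterozygous RNA. Per the file headers the authors extracted the spots with Agilent Feature Extraction 11.5.1.1 (8.5.1.1 per the submitters' processing notes), on probe design 026655, annotated on mm9. Spot and background signals were deposited as the median intensity of a spot's pixels, and Feature Extraction's own deposited ratio of the dyes is on a log10 scale. The series' processed table is taken as the authors' log2 ratios from their slopes on the scanner ratios (0.688, 0.799 and -0.797). Their normalization and centring stay unknown (column medians 0.086, -0.08 and 0.053), and their direction follows the turned replicate 3. The deposited 0 or 1 marks, per the file headers, flag saturated, outlying or well measured spots.

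The median signals were corrected by normexp (offset 50), with local backgrounds marked as outliers replaced by the channel's median unmarked one, and normalized by loess in limma 3.58.1 (R 4.3.3). Flagged spots were left out and spots of a probe averaged. Probes were named through RefSeq accessions (28025 of 39429 had 1 symbol). Testing required, on every array, that either channel be well above background, and each gene's brightest such probe stands for it (14713 genes). Limma's moderated test had 8.66 degrees of freedom, with Benjamini-Hochberg adjustment and a threshold of 0.05. Levels of each group are the separate channels after loess and Aquantile scaling, and open to dye bias, as replicates 1 and 2 share a dye orientation. Arrays 2 and 3 lay on one slide and array 1 on another. The test was also run on simulated ratios of 14713 genes, with 200 changed in each of 5 runs. It recovered 69% of 2-fold and 93.8% of 4-fold changes, with 2.04% of calls false. The simulated noise was independent between genes, with no error shared by an array, dye or slide. Far fewer genes changed in it than the 64.5% called in the data. Its rates therefore do not carry over to the calls reported here.

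The genes and lists were chosen with earlier results of these data known. Named genes are all 10 members, genes of the lists in the design, Hopx, and the 3 genes nearest in ratio to the members of highest and lowest ratio; some of these are not reported here. Alternatives covered the direction of replicate 3, the source of the ratio, background, normalization, filter, probes, slide and each replicate left out.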

Additional observations from a re-analysis of the deposited data

How the results depend on the processing

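Klf2, Klf4, Klf5 and Klf10 kept their call and direction under every tested alternative except replicate 3 as labelled (the slide of replicate 1 alone allows no test), and Klf3, Klf7, Klf9 and Klf13 were called under none. With replicate 3 as labelled no gene was called (0 higher and 0 lower, of the 10 and of all genes), and the log2 ratios were 0.089 for Klf2, -0.93 for Klf4, -0.46 for Klf5, -0.12 for Klf6, -0.24 for Klf10 and 0.054 for Klf15, the last with its sign turned, as for Tek (0.047), Cldn5 (-0.134) and Col1a2 (0.007). With median centring 3 of the 10 genes were lower, without Klf6 (-0.19) and Klf15 (-0.37), and over all genes 3031 were higher and 2019 lower (60% higher among called genes, against 48.9% with loess, 4638 and 4853). With marked local backgrounds kept the counts were 2659 and 2251, and Klf15 (-0.28) did not pass, nor did it in the authors' values (-0.41). The causes were not tested. Leaving out each replicate in turn gave ratios from 0.73 to 1.00 for Klf2, -0.04 to 0.04 for Klf3, -2.61 to -2.50 for Klf4, -1.55 to -1.40 for Klf5, -0.57 to -0.47 for Klf6, -0.03 to 0.06 for Klf7, -0.14 to 0.06 for Klf9, -1.33 to -1.10 for Klf10, 0.18 to 0.28 for Klf13 and -0.52 to -0.26 for Klf15, which did not pass without replicate 1. Cldn4 ranged from -0.453 to 0.325 and passed as lower without replicate 3. On the slide of replicate 1 alone Klf7 lay at 0.11 and Klf13 at 0.085, and the other slide is the fit without replicate 1. The slide as a random block could not be fitted to 3 arrays; as a fixed block, an alternative chosen after seeing the data, it changed no call of the 10 genes. The test is itself paired, since each ratio sets the 2 channels of 1 array against each other, and there is no further pairing to fit. The number of arrays limits what small differences can show. All 10 genes were well above background in both groups. Klf15 had the lowest intensities of the 10, and its call was lost with marked local backgrounds kept (-0.28, adjusted p = 0.223 by limma).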
